A study of Mus musculus with 7 samples.

Results

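The marker genes of tissue-resident cardiac macrophages, Mrc1, Lyve1, Folr2, Cd163 and Siglec1, were described in the hearts of mice that had or had not received human CD4+ T cells. They were taken by name from a count table of 20343 genes. All 5 were present, and all 5 were among the 7667 genes that passed the filter on low counts. The animals were NSG-DR1 mice, given in the labels as strain NSG-DRB1*0101. This is an immunodeficient line that lacks its own lymphocytes, retains macrophages and neutrophils, and carries the human class II molecule HLA-DR1. RNA came from the apical region of the myocardium of 4 untreated control hearts and of 3 hearts taken 6 weeks after transfer of human CD4+ T cells, called transferred hearts here. Both groups shared the strain and the transgene, so the transfer was the labelled difference between them. The age and sex of the animals are not given in the sources used here. The labels do not say whether the 3 recipients received cells of the same donor.

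Resident cardiac macrophages lie between the muscle cells and around vessels, where they take up debris, dying cells and spent proteins. Much of this uptake runs through scavenger and lectin receptors. Mrc1 encodes the mannose receptor, an endocytic lectin for glycoproteins. Lyve1 encodes a receptor for the matrix sugar hyaluronan and also marks lymphatic endothelium. Folr2 encodes a folate receptor anchored in the membrane by a lipid, and Cd163 the receptor that clears complexes of haemoglobin and haptoglobin. Siglec1 encodes sialoadhesin, a lectin for sialic acid that is known to be induced by type I interferon.

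The 7 libraries held between 16402179 and 25190560 counts in the analysed part of the genome, which covers chromosomes 1 to 7 and the start of chromosome 8. Macrophage genes elsewhere are not analysed here, such as the resident markers Timd4, Stab1 and F13a1 and the general macrophage genes Csf1r and Adgre1. Levels are given as counts-per-million (CPM), scaled between libraries with TMM (trimmed mean of M values). Cardiomyocyte genes, the check on the tissue label, were abundant. Actc1 (cardiac actin) averaged 38694 CPM and Atp2a2 (the calcium pump of the sarcoplasmic reticulum) 27805 CPM in control hearts. Over the 11 cardiomyocyte genes in the table the sum was 142760 to 163449 CPM in control and 140918 to 170344 CPM in transferred hearts.

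All 5 genes had a higher mean in transferred hearts. Their log2 fold changes were all positive, against 3807 of the 7667 tested genes. Mrc1 was the only gene of the 5 past the threshold, an adjusted p under 0.05 in the edgeR quasi-likelihood test with Benjamini-Hochberg adjustment over the 7667 genes. Over all tested genes, 0.130% were higher and past this threshold, and 0.235% passed it in either direction. The lowest transferred heart exceeded the highest control heart for Mrc1, Lyve1 and Siglec1, against 5.99% of all tested genes, and the groups overlapped for Folr2 and Cd163. All 5 had an unadjusted p under 0.05 and a higher mean, against 7.17% of tested genes (5.27% had such a p and a lower mean). The median log2 fold change was 0.77 over the 5 and -0.002 over all tested genes. In a bulk sample, more cells of a type and more RNA of a gene per cell cannot be told apart.

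**Figure D1:**
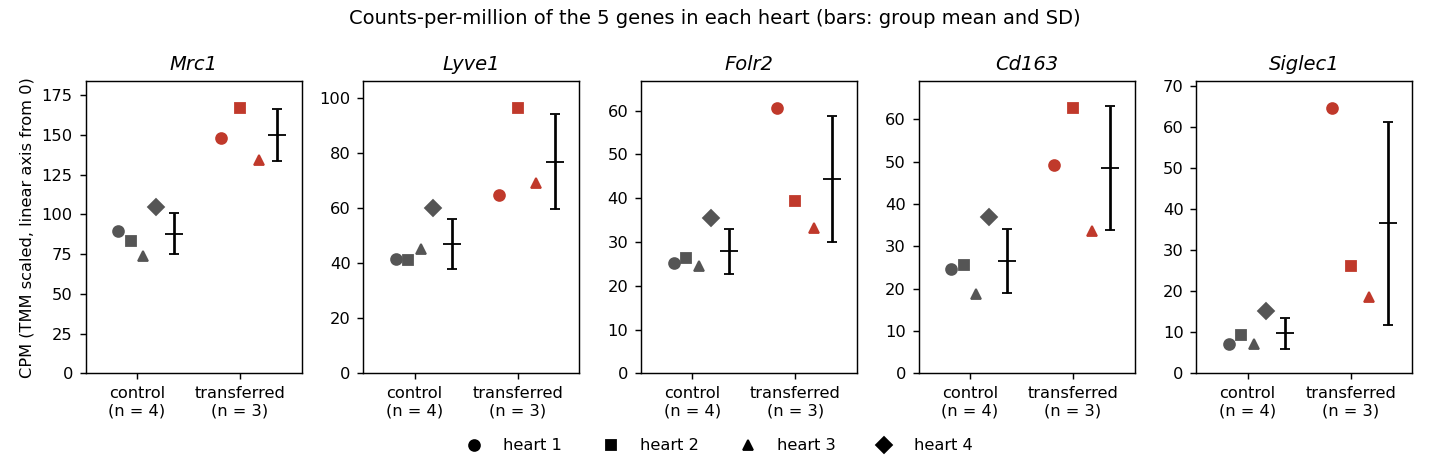
Level of each gene in each heart, in counts-per-million on linear axes that start at 0. Grey symbols are the 4 control hearts, red symbols the 3 transferred hearts, and bars show the group mean and SD. Mrc1, Lyve1 and Siglec1 separate the groups, while control heart 4 lies above transferred heart 3 for Folr2 and Cd163.

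Mrc1 (chromosome 2, 14229414 to 14332023, plus strand, GRCm38) had 89.5, 83.6, 73.9 and 104.9 CPM in control hearts 1 to 4. It had 148.4, 167.2 and 134.2 CPM in transferred hearts 1 to 3. Every transferred heart was above every control heart. The means were 87.97 ± 12.97 CPM (SD, n = 4) and 149.9 ± 16.5 CPM (SD, n = 3). The fitted log2 difference was 0.77 (standard error 0.12; edgeR adjusted p = 0.0384), a 1.71-fold rise. Its size varied little between alternatives, from 0.69 to 0.87, but its place past the threshold did not hold without single hearts. It passed without transferred heart 3 and was lost without any other heart, with adjusted p between 0.0235 and 0.157 over the 7 fits.

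The 250 bases before the RefSeq start of Mrc1 are shown because it was the only one of the 5 past the threshold (GRCm38.p6, chr2:14229164-14229413, plus strand, read from 5′ to 3′). Capitals mark the core GAGGAA of sites for PU.1, a transcription factor of myeloid cells, here on the opposite strand.

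Mrc1: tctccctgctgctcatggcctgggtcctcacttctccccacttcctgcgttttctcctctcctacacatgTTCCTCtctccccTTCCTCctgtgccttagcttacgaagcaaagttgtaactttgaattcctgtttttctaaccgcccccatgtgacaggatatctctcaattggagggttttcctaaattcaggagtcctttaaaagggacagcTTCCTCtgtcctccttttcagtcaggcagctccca

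The core occurred at 180 to 175, 167 to 162 and 35 to 30 bases before the start. It is a common string, found on either strand in 23.3% of 32851 RefSeq windows of this length. The other strings searched on both strands were the core of the interferon-stimulated response element (in 2.98% of windows), TTCNNNGAA (STAT factors, 7.02%) and TGCTGA (bound by MAF factors, 16.1%). They were not found in this window. A match or its absence describes letters only. RefSeq windows were matched for Mrc1 (1 window), Folr2 (2 windows) and Cd163 (1 window) of the 5 genes, and the Cd163 window held none of the 4 strings.

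Lyve1 (chromosome 7, 110850607 to 110862953, minus strand) had 41.6, 41.1, 45.2 and 60.3 CPM in control hearts 1 to 4. It had 64.7, 96.7 and 69.3 CPM in transferred hearts 1 to 3. The groups did not overlap, but control heart 4 came within a few CPM of transferred heart 1. The means were 47.05 ± 9.04 CPM (SD, n = 4) and 76.9 ± 17.3 CPM (SD, n = 3), and the fitted log2 difference was 0.71 (standard error 0.17; edgeR adjusted p = 0.128). Transferred heart 2 was the highest, and without it the log2 fold change was 0.51.

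Because Lyve1 is also expressed by lymphatic endothelium, 8 genes of that cell type were read beside it. Of them 0 passed the edgeR threshold, 1 had an unadjusted p under 0.05, and the groups overlapped for all 8. Their median log2 fold change was 0.13, and their summed level was 502 to 646 CPM in control and 584 to 671 CPM in transferred hearts. Ccl21a (a chemokine of lymphatic vessels) had 0.40 on the log2 scale (edgeR adjusted p = 0.312) and Mmrn1 (an adhesive glycoprotein) 0.30 (edgeR adjusted p = 0.718). The most abundant genes of the list were Prox1, the lineage factor of lymphatic endothelium, at 0.05 and Nrp2, a co-receptor for growth factors, at 0.01. Most of the summed level came from them. In a bulk sample their counts cannot be assigned to lymphatic endothelium alone. Of the 8 genes, 6 had a positive and 2 a negative log2 fold change, from -0.12 to 0.43. The part of lymphatic endothelium in the Lyve1 difference was not tested.

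Folr2 (chromosome 7, 101839988 to 101857190, minus strand) had 25.2, 26.3, 24.5 and 35.4 CPM in control hearts 1 to 4. It had 60.7, 39.5 and 33.1 CPM in transferred hearts 1 to 3. Transferred heart 1 stood highest, and transferred heart 3 lay below control heart 4. The means were 27.8 ± 5.10 CPM (SD, n = 4) and 44.4 ± 14.4 CPM (SD, n = 3), and the fitted log2 difference was 0.68 (standard error 0.21; edgeR adjusted p = 0.229). Without transferred heart 1 the log2 fold change was 0.39. The gene overlaps Gm10602, a long noncoding RNA gene on the other strand with 250 to 469 counts per heart and a log2 fold change of -0.15. Whether strand was used in counting is not given in the sources used here, so reads of these overlapping genes may not be separable.

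Both windows of Folr2 are shown because Folr2 followed Siglec1, the interferon-inducible gene of the 5, most closely from heart to heart, as described below. The first lies before the outer start of the gene (GRCm38.p6, chr7:101857191-101857440, minus strand, read from 5′ to 3′), and the second before a start inside it (chr7:101845332-101845581, minus strand). Capitals mark the MAF string TGCTGA, at 220 to 215 bases before the outer start and at 19 to 14 bases before the inner start.

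Folr2 outer start: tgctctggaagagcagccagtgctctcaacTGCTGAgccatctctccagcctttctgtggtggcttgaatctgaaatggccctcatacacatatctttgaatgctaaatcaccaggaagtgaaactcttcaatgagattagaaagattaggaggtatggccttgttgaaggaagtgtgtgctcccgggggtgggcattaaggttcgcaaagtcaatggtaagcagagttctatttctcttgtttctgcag

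Folr2 inner start: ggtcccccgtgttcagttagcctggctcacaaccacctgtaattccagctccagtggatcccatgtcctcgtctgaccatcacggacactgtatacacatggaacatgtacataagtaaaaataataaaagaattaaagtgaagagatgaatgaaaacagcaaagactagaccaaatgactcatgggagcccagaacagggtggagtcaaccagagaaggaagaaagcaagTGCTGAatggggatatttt

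The core of the interferon-stimulated response element, the STAT string and the PU.1 core were not found in either window.

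Cd163 (chromosome 6, 124304636 to 124330529, plus strand) had 24.8, 25.7, 18.7 and 37.0 CPM in control hearts 1 to 4. It had 49.1, 62.7 and 33.6 CPM in transferred hearts 1 to 3. Transferred heart 2 was the highest, and transferred heart 3 again lay below control heart 4. The means were 26.5 ± 7.64 CPM (SD, n = 4) and 48.5 ± 14.6 CPM (SD, n = 3), and the fitted log2 difference was 0.88 (standard error 0.25; edgeR adjusted p = 0.211). Cd163 overlaps Gm52877, a long noncoding RNA gene on the other strand with 68 to 181 counts per heart and a log2 fold change of 0.47.

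Siglec1 (chromosome 2, 131067801 to 131086778, minus strand) had 7.20, 9.42, 7.22 and 15.1 CPM in control hearts 1 to 4. It had 64.6, 26.2 and 18.6 CPM in transferred hearts 1 to 3. The groups did not overlap, and transferred heart 1 was 6.64 times the control mean while hearts 2 and 3 were 2.69 and 1.91 times that mean. The means were 9.73 ± 3.72 CPM (SD, n = 4) and 36.5 ± 24.7 CPM (SD, n = 3), the largest ratio of the 5 genes. The fitted log2 difference was 1.92 (standard error 0.46; edgeR adjusted p = 0.163). It was 1.21 without transferred heart 1, and it passed the threshold without transferred heart 3, at 2.24 (edgeR adjusted p = 0.0438).

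Control heart 4 was the highest control heart for all 5 genes. The same heart had the highest mean of the 14 tested general macrophage genes among controls, a log2 CPM of 5.03 against 4.53 to 4.78, and the fewest counts. The labels name no batch, but the identifiers of control heart 1 and transferred heart 1 start with letters and those of the other hearts are digits. Between the 2 hearts with letters the log2 difference was 0.73 for Mrc1, 0.64 for Lyve1 and 0.98 for Cd163. Among the 5 hearts with digits it was 0.79, 0.76 and 0.81. For Siglec1 the values were 3.15 with letters and 1.12 with digits, and for Folr2 1.27 and 0.35. With the form of the identifier as a covariate 0 of the 5 genes passed the edgeR threshold. The adjusted p of Mrc1 was then 0.0727, and 973 of all tested genes had an unadjusted p under 0.05.

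Per kilobase of combined exon, the order of levels in control hearts was Folr2, Lyve1, Mrc1, Cd163 and Siglec1. Folr2 had 20.9 ± 3.83 CPM per kilobase, Lyve1 18.05 ± 3.47 and Mrc1 16.5 ± 2.44 (SD, n = 4). The ranges of these 3 neighbours overlapped, but within a heart Folr2 was above Lyve1 in 4 of 4 control hearts and Lyve1 above Mrc1 in 3 of 4. Cd163 had 5.88 ± 1.69 and Siglec1 1.221 ± 0.467 CPM per kilobase (SD, n = 4), each below the range of the gene before it. In transferred hearts the order of the means was the same, with 33.4 ± 10.9, 29.5 ± 6.62, 28.2 ± 3.11, 10.8 ± 3.23 and 4.58 ± 3.10 CPM per kilobase (SD, n = 3). There Folr2 was above Lyve1 in 1 of 3 hearts and Lyve1 above Mrc1 in 2 of 3, and the ranges of Cd163 and Siglec1 overlapped, although Cd163 was above Siglec1 in 3 of 3. Siglec1 made up 1.55% to 2.38% of the summed level of the 5 genes per kilobase in control hearts and 2.695% to 6.91% in transferred hearts.

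The 5 genes did not follow a single order over the transferred hearts. Mrc1, Lyve1 and Cd163 were highest in transferred heart 2, whereas Folr2 and Siglec1 were highest in transferred heart 1 and lowest in heart 3. As a description over 7 hearts, after removing group means, the Pearson correlation of log2 CPM was 0.99 between Folr2 and Siglec1 and 0.96 between Mrc1 and Cd163. Between Lyve1 and Siglec1 it was 0.10, and between Lyve1 and Folr2 0.14. Points from a single library share its depth and scaling. Among 5072 genes with a mean of at least 10 CPM, Siglec1 was the second closest to Folr2, and Folr2 the closest to Siglec1. The other genes closest to either of them were Nucb2, Ddost and Cdipt, at 0.99. Closest to Cd163 were Selplg (a selectin ligand of leukocytes, 0.99), C1qb (a chain of complement C1q, 0.98) and Atp9a (0.98). Closest to Mrc1 were Fam217b, Atp9a and Usp30 (0.98, 0.98 and 0.97), and to Lyve1 Smt3h2-ps4, Cadm3 and Fmnl2 (0.99, 0.99 and 0.98).

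The mean level of the type I interferon genes had the same order over the transferred hearts as Siglec1 and Folr2. The mean log2 CPM of 23 tested genes was above the control mean by 2.35 in transferred heart 1, 1.15 in heart 2 and 0.38 in heart 3. For Siglec1 these values were 2.79, 1.49 and 0.995, and for Folr2 1.14, 0.52 and 0.27. Single genes of the list could differ, as Ifi203 did with 148.6, 42.2 and 83.4 CPM in transferred hearts 1 to 3. The means of the lymphatic endothelial, haem and iron, cardiomyocyte and lymphocyte lists had the same order, with values from -0.55 to 0.29, and whether the order is particular to interferon genes was not tested. In this list 1 of 23 genes passed the edgeR threshold, Oas2 (an antiviral oligoadenylate synthetase), and 23 of 23 had a positive log2 fold change, with a median of 1.29. Of all 7667 tested genes, 3807 were positive and 0.130% were higher and past the threshold. With limma-voom, with the identifier covariate and in the hearts with digits alone, no tested gene passed, Oas2 included. The same held without control heart 1, 2 or 4 and without transferred heart 2. Without control heart 3 no gene that was higher passed. Oas3, of the same family, had 3.93 (edgeR adjusted p = 0.0546) and Herc6, a ubiquitin ligase of the interferon response, 0.89 (edgeR adjusted p = 0.0792). The part of interferon in the Siglec1 and Folr2 levels was not tested.

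**Figure D2:**
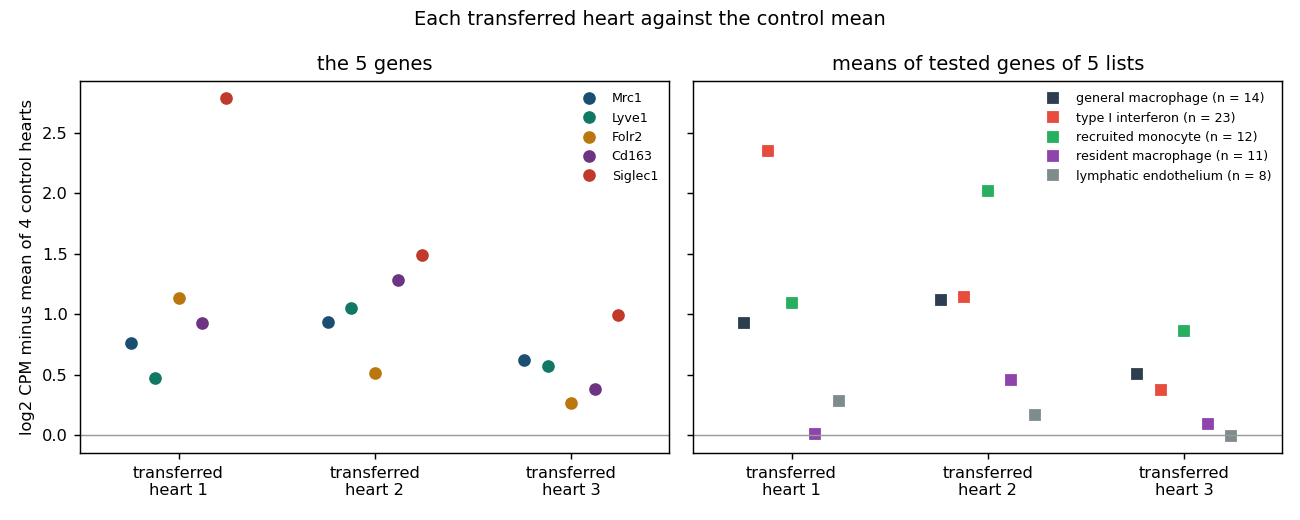
Level of each transferred heart relative to the mean of the 4 control hearts, in log2 CPM, for the 5 genes (left, circles) and for the mean of the tested genes of 5 lists (right, squares). Siglec1 and the type I interferon genes are highest in transferred heart 1, at 2.79 and 2.35, whereas Mrc1, Lyve1, Cd163 and the general macrophage genes are highest in transferred heart 2.

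Genes expressed by macrophages in general were read beside the 5. Of the 14 tested, 14 had a positive log2 fold change, 12 separated the groups and 1 passed the edgeR threshold, with a median of 0.93. Of all 7667 tested genes, 3807 had a positive log2 fold change. Shares of 5.99% separated the groups with transferred hearts higher, and 0.130% were higher and past the threshold. C1qb rose by 0.98 on that scale (edgeR adjusted p = 0.0384). This call was lost with limma-voom, with the identifier covariate, with digits alone and in 6 of the 7 fits that left out a heart, where 0 of the 14 genes passed. Without transferred heart 3, 10 of the 14 passed. Fcer1g (the signalling chain of Fc receptors) had 0.93 (edgeR adjusted p = 0.0515) and Ptprc (the leukocyte antigen CD45) 1.12 (edgeR adjusted p = 0.0572). Mean log2 CPM of the 14 genes was 4.78 ± 0.21 (SD, n = 4) in control and 5.63 ± 0.31 (SD, n = 3) in transferred hearts, a difference of 0.85.

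Each of the 5 genes was then set against this mean within each heart. The log2 ratio of Mrc1 to the 14 genes was 1.67 ± 0.04 (SD, n = 4) in control and 1.595 ± 0.17 (SD, n = 3) in transferred hearts, a difference of -0.08 (two-sided exact permutation p = 0.343). The difference was -0.15 for Lyve1, -0.21 for Folr2 and 0.01 for Cd163, with exact permutation p of 0.457, 0.371 and 0.971. For these 4 genes the difference was below the SD between transferred hearts. For Mrc1 and Folr2 no transferred heart lay inside the control range, with 2 hearts below it and 1 above it. For both genes the difference was larger than the control SD. Siglec1 had -1.55 ± 0.34 (SD, n = 4) and -0.64 ± 0.83 (SD, n = 3), a difference of 0.91 (exact permutation p = 0.0857). After adjustment over the 5 genes the lowest p was 0.429. The test has 35 splits of the hearts and cannot give a p below 0.0286, and these values do not show that the ratios were equal.

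**Figure D3:**
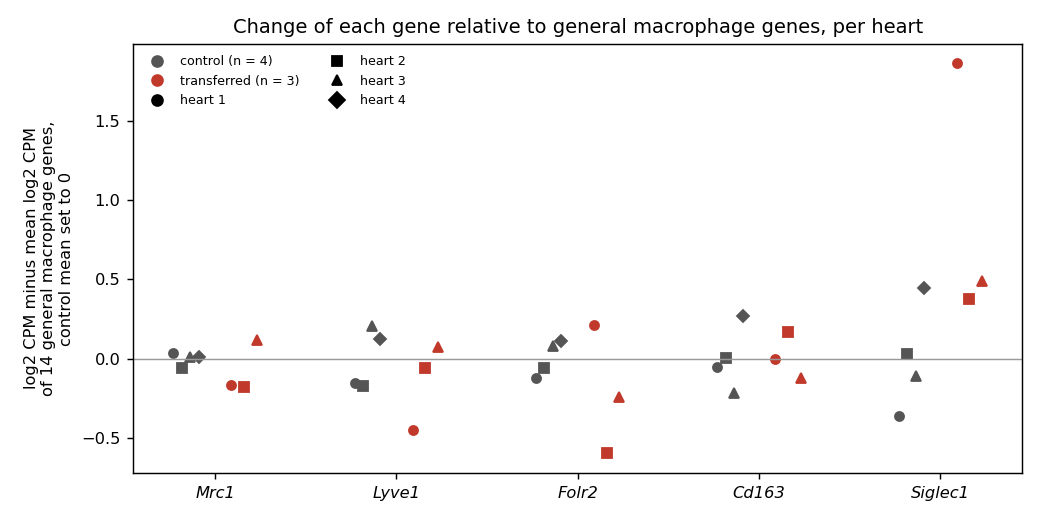
Change of each gene relative to 14 general macrophage genes, per heart, as log2 CPM of the gene minus the mean log2 CPM of the 14 genes, with the control mean of each gene set to 0. Grey symbols are control and red symbols transferred hearts. For Mrc1 and Folr2 the transferred hearts lie on both sides of the control range, Cd163 stays within it, and Siglec1 in transferred heart 1 stands apart at 1.86.

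The fold changes of the 5 genes were also compared directly in 10 pairs. Siglec1 had a larger change than Lyve1, Folr2 and Cd163 by 1.05, 1.12 and 0.89 on the log2 scale. In each of these 3 pairs the ratio did not overlap between the groups, and each had an exact permutation p of 0.0286, the smallest that 35 splits allow. Adjusted over the 10 pairs this was 0.0952, so no pair passed 0.05. With 35 splits, the pairs with Siglec1 could not have passed by themselves, even with all of them at the smallest p. The adjusted result therefore cannot decide whether Siglec1 changed more. Siglec1 against Mrc1 differed by 0.98 (adjusted exact permutation p = 0.214). Among Mrc1, Lyve1, Folr2 and Cd163 the 6 differences lay between -0.22 and 0.13, all with overlapping groups. Without transferred heart 1 the 4 differences for Siglec1 were between 0.41 and 0.85.

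Other genes used as markers of resident macrophages had log2 fold changes on both sides of 0. Of 30 listed, 11 were tested and 0 passed the edgeR threshold. There were 2 higher and 1 lower at an unadjusted p under 0.05, and the median log2 fold change was 0.18. DESeq2 called 2 of them. Pf4 (a platelet and macrophage chemokine) had 20.7 ± 1.93 CPM (SD, n = 4) in control and 53.4 ± 27.2 CPM (SD, n = 3) in transferred hearts (edgeR adjusted p = 0.151). Gas6, a bridging protein for uptake of dying cells, had 0.27 on the log2 scale (edgeR adjusted p = 0.259). Ccl24, an eosinophil chemokine, had -0.997 (edgeR adjusted p = 0.195). Several genes of the list, such as Cd36 and Fcgrt, are also expressed by endothelium or other heart cells.

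**Figure D4:**
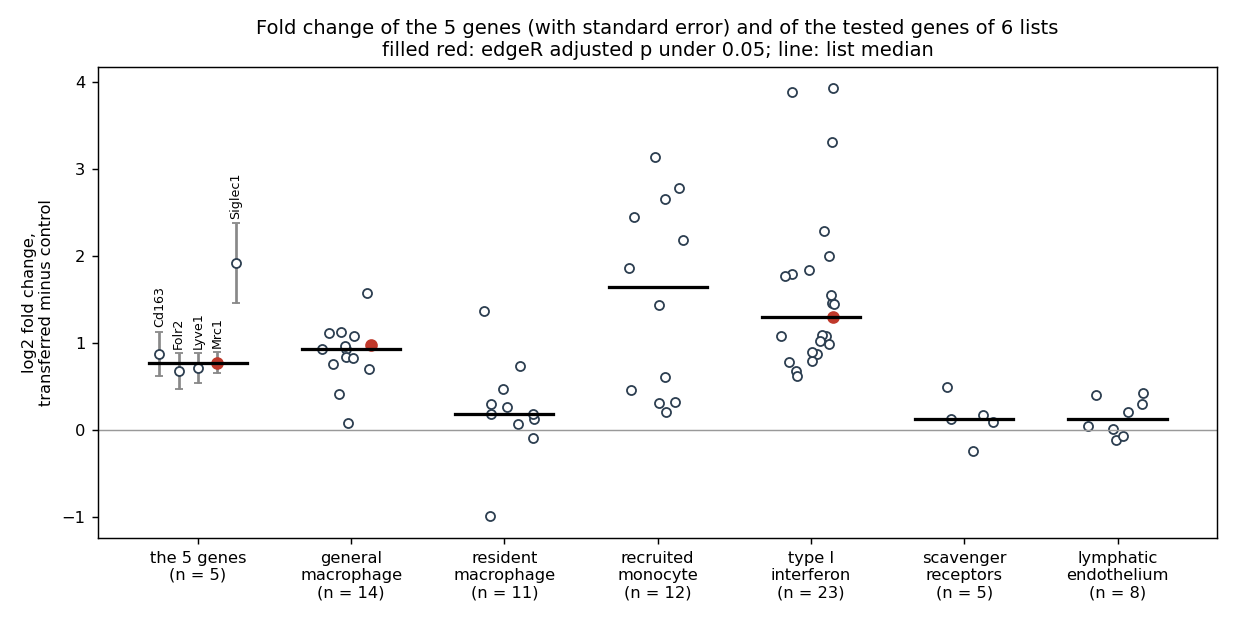
Log2 fold change, transferred minus control, of the 5 genes with their standard errors and of the tested genes of 6 lists. Each circle is a gene, filled red where the edgeR adjusted p is under 0.05, and the line is the median. The median is 0.77 for the 5 genes, 0.93 for general macrophage genes and 0.18 for other resident macrophage genes.

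Genes of recruited monocytes and of neutrophils had positive log2 fold changes in 12 of 12 and 6 of 6 tested genes, but 0 of either passed the edgeR threshold. At an unadjusted p under 0.05 there were 9 and 5, all higher, against 7.17% of all tested genes. A positive log2 fold change was found in 3807 of the 7667 tested genes. The recruited monocyte genes had a median log2 fold change of 1.65 and a summed level of 170 to 233 CPM in control and 240 to 323 CPM in transferred hearts. Those with the smallest p-values were Plac8 (3.15, edgeR adjusted p = 0.0546), the Fc receptor gene Fcgr4 (2.65, edgeR adjusted p = 0.0702) and the integrin gene Itgal (1.43, edgeR adjusted p = 0.108). The neutrophil sum was 13.1 to 39.0 CPM in control and 22.1 to 309.7 CPM in transferred hearts. S100a9, an inflammatory calcium-binding protein, reached 137.8 CPM in transferred heart 2, where Mrc1, Lyve1 and Cd163 were also highest, against 4.31 CPM in transferred heart 1. The neutrophil genes had a median log2 fold change of 2.73, from 0.93 for Lcn2 (an iron-sequestering protein, edgeR adjusted p = 0.707) to 4.07 for S100a8, the partner of S100a9 (edgeR adjusted p = 0.248). The chemokine receptor gene Cxcr2 had 3.77 (edgeR adjusted p = 0.193), S100a9 3.73 (edgeR adjusted p = 0.283), the growth factor receptor gene Csf3r 1.73 (edgeR adjusted p = 0.279) and the protease gene Mmp9 1.59 (edgeR adjusted p = 0.369). For S100a8 and Cxcr2 the groups did not overlap, and all 6 genes were highest in transferred heart 2. The part of these cell types in the 5 genes was not tested.

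The other cell type lists showed no gene past the edgeR threshold. Their median log2 fold changes were 0.11 for 9 blood endothelial, 0.06 for 6 fibroblast, 0.10 for 3 dendritic cell, -0.13 for 3 lymphocyte and -0.01 for 2 adipocyte genes. At an unadjusted p under 0.05 these lists held 2 higher and 1 lower, 0, 1 higher, 1 lower, and 0 genes. The most abundant genes of these lists had log2 fold changes of 0.12 (Cd36) and 0.01 (Fabp4, a fatty acid binding protein of endothelium and fat cells), 0.16 (Gsn) and -0.12 (Col3a1) in fibroblasts, and 0.10 (Zbtb46) and -0.58 (Siglech) in dendritic cells. Itgax, an integrin gene of dendritic cells and macrophages, had 1.85 (edgeR adjusted p = 0.216), with 0.253 CPM on average in control and 0.957 CPM in transferred hearts and no overlap. Its control levels, 0.0486 to 0.430 CPM, were near the floor of 3 counts per library (0.119 to 0.183 CPM), so this change rests on few reads. In the blood endothelial list, Vwf (von Willebrand factor) had 101.2, 94.0, 90.9 and 138.3 CPM in control hearts 1 to 4 and 176.8, 380.6 and 159.2 CPM in transferred hearts 1 to 3. The groups did not overlap, the highest heart was again transferred heart 2, and the log2 fold change was 1.17 (edgeR adjusted p = 0.1997). Tie1, a receptor of endothelial cells, had -0.28 (edgeR adjusted p = 0.185), also without overlap. The part of endothelium in the 5 genes was not tested. Pparg of the adipocyte list had -0.02, and Cd4 of the lymphocyte list had 0.35. Cd247, the zeta chain gene of the T cell receptor, had -1.06 (edgeR adjusted p = 0.278). The lymphocyte sum was 30.1 to 38.5 CPM in control and 28.7 to 36.5 CPM in transferred hearts. Most of it came from Cd28, with means of 28.6 and 26.1 CPM, and the T cell receptor gene Trbc1 had no counts. Counts were assigned to mouse genes, so this list is not a measure of the transferred human T cells. The line lacks its own lymphocytes, and which cells gave these counts was not tested.

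Partners of the 5 genes were read by the molecule each receptor binds. Of the mannose receptor family, Pla2r1 and Ly75 had log2 changes of 0.02 (edgeR adjusted p = 0.980) and 0.28 (edgeR adjusted p = 0.590). Both are endocytic receptors built like the mannose receptor. Of 5 other scavenger receptors tested, 0 passed the edgeR threshold and the median was 0.12. Scarb2, a lysosomal membrane protein, had 0.17 (edgeR adjusted p = 0.376). Scarb1, a receptor for high-density lipoprotein, had -0.25 (edgeR adjusted p = 0.451), and Cd36, a fatty acid receptor, had 0.12 (edgeR adjusted p = 0.644). Cd163l1 and Dmbt1, of the same list, had no counts.

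Among genes of hyaluronan turnover and binding, the ligand side of Lyve1, 0 of 5 tested passed the edgeR threshold, with a median of -0.10. Cd44, the main hyaluronan receptor of leukocytes, had 0.31 on the log2 scale (edgeR adjusted p = 0.353). Tnfaip6, which modifies hyaluronan in inflamed tissue, had 0.83 (edgeR adjusted p = 0.493), and Itih5, an inter-alpha-trypsin inhibitor chain, -0.17 (edgeR adjusted p = 0.752). In folate uptake and metabolism, 0 of 8 passed and the median was 0.06. Mthfd2, a mitochondrial folate enzyme, had 1.799, standard error 0.90, (edgeR adjusted p = 0.508). Its level was 58.6 CPM in transferred heart 1 and 5.17 and 6.18 CPM in hearts 2 and 3, both below the control mean of 6.73 CPM. Ggh, which trims folate polyglutamates, had 0.13, and Mthfd2l, a related mitochondrial enzyme, had 0.16. Folr1, the epithelial folate receptor, averaged 0.187 CPM in control and 0.164 CPM in transferred hearts, near the floor of 3 counts per library (0.119 to 0.183 CPM).

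Of 10 tested genes of haemoglobin, haem and iron handling, which lies downstream of Cd163, 0 passed the edgeR threshold and the median was 0.01. Slc40a1, the iron exporter ferroportin, had -1.26 on the log2 scale, standard error 0.25 (edgeR adjusted p = 0.0813). Cp, the ferroxidase ceruloplasmin, had 0.44 (edgeR adjusted p = 0.106) and Blvrb, biliverdin reductase B, 0.27 (edgeR adjusted p = 0.305). Of 3 other sialic acid lectins tested beside Siglec1, 0 passed, with a median of 0.53. Siglece, an inhibitory lectin of myeloid cells, had 1.25 (edgeR adjusted p = 0.110), Cd33 had 0.53 (edgeR adjusted p = 0.300) and Siglech, a marker of plasmacytoid dendritic cells, -0.58 (edgeR adjusted p = 0.496).

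Of 10 tested growth and polarising signals of macrophages, 0 passed the edgeR threshold, 3 were higher at an unadjusted p under 0.05, and the median was 0.17. Irf5, a transcription factor gene, had 0.61 on the log2 scale (edgeR adjusted p = 0.178). Il4ra, the receptor for the cytokine that raises Mrc1 in cultured macrophages, had 0.52 (edgeR adjusted p = 0.292).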

How the data were processed

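RNA sequencing was analysed in 4 control and 3 transferred hearts, grouped by the treatment label and numbered in accession order. The authors deposited raw, not normalized, estimated counts per RefSeq gene. Per the submitters' processing notes, bcl2fastq 2.20.0.422, cutadapt 2.5, STAR 2.7.2b, featureCounts 1.6.4 and DESeq2 1.22.2 were used with GRCm38.p6. Their settings are not given in the sources used here. Fractions occurred in 4.63% of values, and counts were rounded. In the 7 hearts, Mrc1 and Lyve1 had 1 fractional value each. All 20343 gene identifiers matched RefSeq (GRCm38.p6), and 1 incomplete row was left out. Totals cover part of the genome and are not library depths.

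Genes were filtered with filterByExpr and tested with the robust quasi-likelihood test of edgeR 4.0.16 (R 4.3.3). Standard errors come from its F statistic. Ratios were taken on log2 CPM (prior count 2) with exact two-sided permutation tests. The procedure was tested on simulated data. Nothing says whether the hearts came from separate experiments, so p-values measure only the spread between these samples. Same-group libraries differed beyond counting noise.

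Named genes were the 5, listed genes past the threshold, the 3 with the smallest p-value in each pathway list, the 2 most abundant in cell type lists, and the 3 closest in pattern to each of the 5. Genes named outside this rule (Ccl21a, Mmrn1, Cd163l1, Dmbt1, Folr1, Fcgrt, Trbc1, S100a8, Cxcr2, Csf3r, Mmp9, Vwf, Tie1, Marco, Ifi203, Itgax, Cd247) were chosen after their values were seen. Some listed genes are not reported here. The 5 genes and all lists were chosen with earlier results of these data known. Alternatives were other scalings, filters, tests (DESeq2 1.42.0, limma 3.58.1), unrounded counts, the identifier form and leaving out hearts.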

Additional observations from a re-analysis of the deposited data

Results flagged for a closer look

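The 4 control hearts were checked for a heart far from the other 3 in 10 results, the level of each of the 5 genes and its ratio to the general macrophage genes. None of the 10 passed the criterion, in which the gap of the extreme heart to its neighbour as a share of the range exceeds Dixon's critical value for 4 samples. Folr2 came closest, at 0.804, with control heart 4 at a log2 CPM of 5.15 against 4.62 to 4.72 in the others. Groups of 3 were not checked.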

How the results depend on the processing

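The log2 fold change was positive for all 5 genes in every alternative, and 14 of 14 general macrophage genes stayed positive. Against 1 of the 5 genes past the threshold, DESeq2 gave 5, with adjusted p of 0.00610 for Lyve1 (0.71), 0.0485 for Folr2 (0.68), 0.0181 for Cd163 (0.87) and 0.0193 for Siglec1 (1.91). For Mrc1, limma-voom gave 0.78 (adjusted p = 0.0703), the identifier covariate 0.77 (0.0727) and the 5 hearts with digits alone 0.80 (0.128), and each of these fits gave 0 of the 5 genes, with 907, 973 and 1054 genes at an unadjusted p under 0.05. Over all its alternatives, the adjusted p of Mrc1 ran from 7.53e-06 to 0.157. The fits that each left out 1 heart gave 0 to 2 of the 5 genes. Their log2 fold changes ran from 0.69 to 0.87 for Mrc1, 0.51 to 0.85 for Lyve1, 0.39 to 0.85 for Folr2, 0.65 to 1.08 for Cd163 and 1.21 to 2.24 for Siglec1. With digits alone Folr2 had 0.35 and Siglec1 1.103.

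Against 1 general macrophage gene past the threshold, RLE scaling gave 2, total count scaling 5, all genes with at least 1 count 6, DESeq2 11, and limma-voom, the covariate and digits alone 0. Leaving out hearts gave 0 to 10. Against 0 other resident macrophage genes, DESeq2 gave 2 and left-out hearts 0 to 2. Against 18 of all tested genes (10 higher), total count scaling gave 35 (26 higher), all genes with at least 1 count 81 (66), DESeq2 250 (190), and limma-voom, the covariate and digits alone 0 (0). Left-out hearts gave 0 to 140 (0 to 128). Without transferred heart 3 the counts were 2 of the 5 genes, 10 general, 2 other resident and 140 of all genes. The cause was not tested.

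Relative to the general macrophage genes, the Cd163 difference of 0.01 became -0.0036 with summed CPM, and ran from -0.0611 to 0.103 with left-out hearts. The Lyve1 difference reached 0.00486 without transferred heart 1 and was -0.256 at its lowest, Mrc1 ran from -0.172 to -0.0243, Folr2 from -0.419 to -0.0151 and Siglec1 from 0.431 to 1.17. With digits alone Siglec1 had 0.31. With 6 or fewer hearts these exact tests, and the pair tests (0 pairs past 0.05 in each), cannot reach the threshold. No paired analysis was possible because the groups share fewer than 2 replicate numbers in the labels. Counting error limits the 5 genes little, since the lowest count was 148. It limits genes near the floor of 3 counts, and such floors cover counting error only.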

Other observations

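The gene of the haemoglobin and iron list with the smallest p-value had a log2 fold change of opposite sign to Cd163, the receptor that brings haemoglobin into macrophages. Slc40a1, the iron exporter, had 31.997, 37.5, 21.0 and 47.5 CPM in control hearts 1 to 4 and 16.3, 15.1 and 11.8 CPM in transferred hearts 1 to 3. The groups did not overlap, and the edgeR adjusted p was 0.0813. Cp, whose product oxidises exported iron, had 305.8, 263.5, 245.3 and 309.4 CPM in control and 370.2, 413.3 and 361.5 CPM in transferred hearts, again without overlap (edgeR adjusted p = 0.106).

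Among chemokine genes used as resident macrophage markers, Ccl24 and Pf4 had log2 fold changes of opposite sign. Ccl24 had 7.78, 4.91, 6.07 and 7.26 CPM in control hearts 1 to 4 and 2.13, 2.87 and 4.74 CPM in transferred hearts 1 to 3. Pf4 had 18.7, 19.4, 22.7 and 21.9 CPM in control hearts and 55.8, 79.3 and 25.1 CPM in transferred hearts. Neither passed the edgeR threshold (adjusted p = 0.195 and 0.151). The scavenger receptor gene Marco was under the filter on low counts, with 0.172 to 0.379 CPM in control and 0.445 to 1.74 CPM in transferred hearts.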
